A study of Mus musculus with 32 samples.

Results

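On the arrays used here, 17 of 33012 noncontrol probes were detected in every sample of immature dendritic cells (iDCs) and in no sample of IL-4-treated macrophages. A probe counted as detected where its signal was at least 3 times its own standard deviation, a signal-to-noise ratio (S/N) of at least 3 as deposited with each array. The 17 probes had to reach that value on all 16 iDC arrays and to stay under it on all 16 macrophage arrays. Probes of H2-Q8 and Nlrp3 were to be left out, which removed 0 probes. That step could act only on probes with a gene symbol, which 317 probes had and 0 of the 17. Whether any of the 17 measures these genes could therefore not be determined. They made up 0.0515% of all noncontrol probes and 0.157% of the 10860 probes detected on all 16 iDC arrays, and the converse rule, detection on all macrophage arrays and on no iDC array, found 10 probes. The probes were thus chosen by the S/N of both cell types, and their iDC and macrophage values are described below without a test. Genotype and RSG treatment within iDCs were not part of the choice, except that a probe whose signal fell under the threshold in any iDC group could not be chosen, and they were tested.

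Bone marrow cells of 8 mice of strain C57Bl/6 were cultured for 9 days. Mice 1 to 4 were Pparg+/- LysCre, with an intact and a null allele of Pparg, and mice 5 to 8 were Pparg fl/- LysCre, with a floxed and a null allele. Both genotypes carried the LysCre transgene and a null allele, so the control animals had 1 intact copy of Pparg and no wild-type animals were compared. Cre was driven by the lysozyme promoter, which is active in myeloid cells, and removes the floxed allele there. No probe named here was that of Pparg, so its loss was not checked on these arrays. Each mouse gave macrophages grown with 20 ng/ml M-CSF and 20 ng/ml IL-4 and iDCs grown with 20 ng/ml GM-CSF and 20 ng/ml IL-4, and each culture received vehicle (DMSO:ethanol) or 1 μM of the PPARγ agonist rosiglitazone (RSG) throughout. This gave 8 groups of 4 arrays, of which the 4 iDC groups carry the comparisons here. The age and sex of the mice were not given in the sources used here. Probe levels are log2 signals quantile normalized over all 32 arrays.

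Dendritic cells take up antigen and present it to T cells, and bone marrow progenitors can be driven toward them with GM-CSF, a cytokine that signals through STAT5. IL-4, which signals through STAT6, is added to such cultures and also directs macrophages to the alternatively activated state. PPARγ is a ligand-activated nuclear receptor that binds DNA with RXR, and it is known in both cell types for its control of lipid handling genes.

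None of the 17 probes could be given a gene symbol. The files identify them by gene models with mCG numbers, and the RefSeq table used here (GRCm38.p6) named 317 probes, among them 0 of the 17. No sequence, position or protein could be matched to them for the same reason, so they are described by gene model. The identity of the cultures was likewise out of reach of these names: of 20 dendritic cell marker genes and 15 macrophage marker genes searched, 0 and 0 had a named probe. Of 25 PPARγ target genes, 2 had one, Ear1, an eosinophil-associated ribonuclease, and Lhx2, a homeobox factor, and of 14 GM-CSF signalling genes, 2 had one, Stat5a and Stat5b. The Stat5a and Stat5b probes were detected on all 16 iDC and all 16 macrophage arrays. Without names, whether any of the 17 probes belongs to these lists could not be determined. Markers of other cells the cultures could hold were as sparse, with 1 named gene among 5 eosinophil markers (Ear1, detected on all 32 arrays), 1 among 6 erythroid markers (Hba-a1, on 12 iDC and 6 macrophage arrays) and 1 among 5 stromal markers (Sfrp4, on 1 iDC and 6 macrophage arrays). Their part in the levels of the 17 probes was not tested.

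The arrays detected 13595 to 16683 probes each, with 13595 to 16683 on iDC arrays and 13830 to 16009 on macrophage arrays, so the ranges of the cell types overlapped. Scans fell on 4 days of 8 arrays, and each day held all cultures of 2 mice of 1 genotype. RSG effects were therefore measured within days, whereas each genotype spanned only 2 days. Differences between the genotypes cannot be told apart from differences between their days. Array number limits the precision of each comparison.

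In macrophages the 17 probes sat at the noise level. Of their 272 macrophage values, 233 had an S/N of 1 or less and 150 were below 0, with 10 above 2 and a median of -0.185. At an S/N of 1 or less the deposited signal was the standard deviation itself for 99.87% of values, so a macrophage level of these probes is a bound and not a measurement. In iDCs their median S/N was 21.63, and 5 of 272 values were under 5. The gap was widest for mCG146863, with an S/N of 32.44 to 71.22 on iDC arrays and at most 0.35 on any macrophage array, and for mCG130182.1, with 26.23 to 66.16 against at most 1.90. mCG120963.1 also had 0 macrophage arrays above an S/N of 1 (7.42 to 36.63 against at most 0.61).

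**Figure D1:**
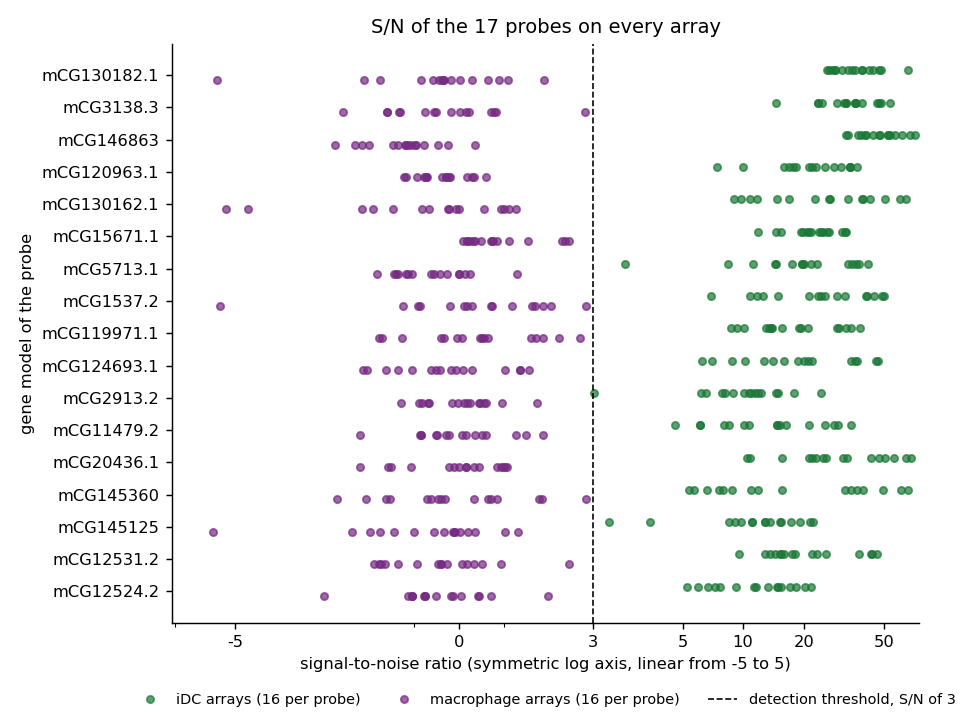
S/N of each of the 17 probes (rows) on the 16 iDC arrays (green) and the 16 macrophage arrays (purple), on a symmetric log axis that is linear between -5 and 5, with the detection threshold of 3 dashed. Macrophage values gather around 0 and end at 2.85, and iDC values start at 3.01.

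A few probes lay close to the threshold. The lowest iDC value inside it was 3.01, for mCG2913.2 in vehicle-treated Pparg fl/- LysCre iDCs of mouse 8, followed by 3.36 for mCG145125. The highest macrophage values inside were 2.85 for mCG1537.2 and 2.84 for mCG145360. Just outside, mCG130738.1 and mCG1036207 missed the rule on iDC arrays with a lowest S/N of 2.73 and 2.73, detected on 14 and 15 of 16 arrays. On the macrophage side mCG144658 and mCG1253.1 missed it by 1 array, with an S/N of 3.00 and 3.14.

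The number of probes chosen moved with the rule. With a threshold of 2 in both cell types 14 probes met it, 11 of them among the 17. An S/N of at least 5 in iDCs kept 13 of the 17. When 15 iDC arrays were enough and 1 macrophage array was allowed, 51 probes met it, which include the 17. Without the arrays of a single mouse the rule found 17 to 26 probes, the most without mouse 6.

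As bounds, the iDC means exceeded the macrophage level by at least 8.64-fold (mCG12524.2) to at least 317-fold (mCG130182.1) in vehicle-treated Pparg+/- LysCre cells, with a median bound of 13.5-fold. In vehicle-treated Pparg fl/- LysCre cells the bounds ran from at least 4.31-fold (mCG2913.2) to at least 542-fold (mCG130182.1), with a median of 31.4-fold. With RSG they ran from at least 4.59-fold to at least 97.1-fold in Pparg+/- LysCre cells and from at least 6.31-fold to at least 107-fold in Pparg fl/- LysCre cells. A bound compares the mean log2 level of the iDC group with the higher, per array, of the macrophage signal and the lowest signal of a detected probe. In cultures measured as a whole, fewer cells that express a gene and less RNA per cell cannot be told apart.

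Within iDCs, the level of the 17 probes was highest in vehicle-treated Pparg fl/- LysCre cells. The median over the 17 probes was 12.85 to 13.13 on the 4 arrays of that group (13.02 ± 0.12, SD, n = 4). It was 11.29 to 11.62 in vehicle-treated Pparg+/- LysCre iDCs (11.48 ± 0.14), 11.26 to 11.51 with RSG in the same genotype (11.41 ± 0.11) and 11.30 to 12.68 with RSG in Pparg fl/- LysCre iDCs (12.10 ± 0.58). The vehicle-treated Pparg fl/- LysCre arrays were above all 12 others, and the wide last group came from mouse 5, whose RSG-treated iDCs had 11.30 where the other 3 mice had 12.18 to 12.68. The mean over the 17 probes gave the same order at the top, with 12.79 ± 0.13 in that group against 11.92 ± 0.11, 11.64 ± 0.18 and 12.09 ± 0.16 in the order just given. By group mean, 10 of the 17 probes had their highest level in vehicle-treated Pparg fl/- LysCre iDCs and 11 their lowest in RSG-treated Pparg+/- LysCre iDCs.

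**Figure D2:**
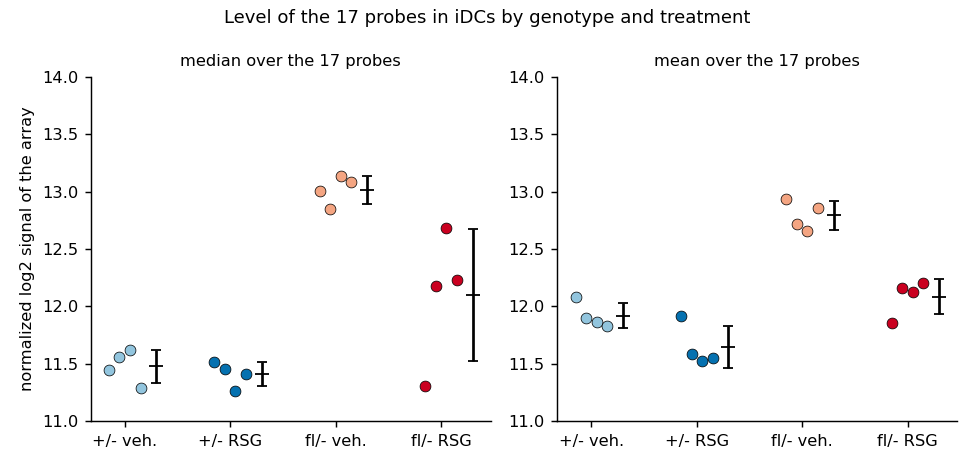
Median (left) and mean (right) normalized log2 signal over the 17 probes on each iDC array, by genotype (+/-, Pparg+/- LysCre; fl/-, Pparg fl/- LysCre) and treatment (veh., vehicle); points are mice and bars the group mean ± SD (n = 4). The vehicle-treated Pparg fl/- LysCre arrays are the highest in both panels (median 12.85 to 13.13).

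The probes varied more between mice than probes in general. The median SE of a difference between 2 iDC groups was 0.39 (log2) for the 17 probes against 0.202 for all 16620 probes tested. The steadiest was mCG15671.1, whose 16 iDC values stayed between 12.86 and 13.72 and whose group means spanned 0.17. For the other 16 probes the group means spanned 0.74 (mCG146863) to 3.50 (mCG145360).

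The first comparison asked what RSG did in iDCs that keep a Pparg allele. Of the 17 probes 4 were called, mCG20436.1 and mCG120963.1 higher and mCG130162.1 and mCG130182.1 lower. A call required 1.5-fold or more together with an adjusted p below 0.05. Over all probes tested 6.01% were called, and 6.84% among those detected on all iDC arrays.

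mCG20436.1 was at 10.46, 10.70, 10.55 and 10.96 with vehicle in mice 1 to 4 and at 13.26, 12.78, 13.87 and 13.20 with RSG. The groups did not overlap, and the probe rose by 2.61 ± 0.44 (log2, SE), a 6.10-fold change (adjusted p = 0.00187), in 4 of 4 mice. In the Pparg fl/- LysCre mice 5 to 8 it was at 11.31, 11.33, 11.27 and 13.08 with vehicle and at 12.52, 11.30, 10.76 and 12.27 with RSG. These overlap, mouse 8 stood apart with vehicle, and the difference was -0.03 ± 0.44 (adjusted p = 0.993).

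mCG120963.1 was at 13.09, 13.37, 12.74 and 13.57 with vehicle and at 14.91, 14.63, 15.53 and 15.28 with RSG in mice 1 to 4. All RSG values were above all vehicle values, and the probe rose by 1.89 ± 0.42 (3.72-fold, adjusted p = 0.0121). In mice 5 to 8 it was at 13.93, 13.79, 13.46 and 15.09 with vehicle and at 14.82, 13.72, 12.68 and 14.13 with RSG, a difference of -0.23 ± 0.42 (adjusted p = 0.926). The array holds 2 further probes of this gene model. Probe 545251 was detected on all 16 iDC arrays and on 2 macrophage arrays, which kept it out of the 17. It rose by 1.72 ± 0.38 with RSG in Pparg+/- LysCre iDCs (adjusted p = 0.0115) and differed by -0.12 ± 0.38 in Pparg fl/- LysCre iDCs (adjusted p = 0.967). Its values were 12.96 to 13.29 with vehicle and 14.21 to 15.33 with RSG in mice 1 to 4, so its groups did not overlap either. Probe 641351 was detected on 0 arrays of either cell type.

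mCG130162.1 was at 13.88, 12.57, 12.55 and 13.87 with vehicle and at 12.14, 10.49, 9.77 and 10.30 with RSG in mice 1 to 4. Every RSG value was below every vehicle value, and the probe fell by 2.54 ± 0.50 on the log2 scale, to a level 5.83-fold lower (adjusted p = 0.00568). mCG130182.1 was at 16.23, 15.11, 14.92 and 16.22 with vehicle and at 14.89, 13.53, 12.40 and 12.99 with RSG, again without overlap. It fell by 2.17 ± 0.48 on the log2 scale (4.49-fold lower, adjusted p = 0.0122). In both probes mice 1 and 4 were the higher pair with vehicle, and mouse 1 was the highest with RSG. The array holds 1 further probe of the gene model mCG130182.1, 817719, which was detected on 1 of 16 iDC arrays (S/N from -0.75 to 3.84) and on 0 macrophage arrays, so it gave no second measurement.

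Within each scan day, mCG20436.1 was higher with RSG by 2.44 and 2.78 and mCG120963.1 by 1.54 and 2.25, as means of 2 mice. On the same days mCG130162.1 was lower with RSG by a log2 difference of -1.91 and -3.18 and mCG130182.1 by -1.46 and -2.87. Without mouse 4 mCG20436.1 alone was called, and the adjusted p was 0.0532 for mCG120963.1, 0.058 for mCG130162.1 and 0.102 for mCG130182.1, while calls over all probes went from 999 to 659. mCG120963.1 was also lost without mouse 1 (0.0611) and without mouse 3 (0.108), where 700 and 609 of all probes were called.

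Of the 17 probes, 3 were higher with RSG in all 4 Pparg+/- LysCre mice, 6 were lower in all 4 and 8 were mixed. Over all probes tested 19.5% were higher in all 4 mice and 17.4% were lower in all 4. The third that was higher, mCG12531.2, had 9.75, 9.91, 10.43 and 10.18 with vehicle and 10.98, 10.53, 11.26 and 11.47 with RSG (0.99 ± 0.39, adjusted p = 0.155). Its groups did not overlap, as for 6 of the 17 probes and 20.5% of all probes tested. The median change of the 17 probes was -0.444 against 0.0223 over all probes, with 6 above 0 and 11 below, and it was -0.245 without mouse 1 and -0.706 without mouse 4. With each mouse as a block, which uses that both cultures came from the same animal, 7 of the 17 were called and 1492 of all probes. The 3 added were mCG12531.2 (adjusted p = 0.0384), mCG145125 (-1.17 ± 0.33, adjusted p = 0.0277) and mCG11479.2 (-0.76 ± 0.23, adjusted p = 0.0421), the last of them named after its values were seen.

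**Figure D3:**
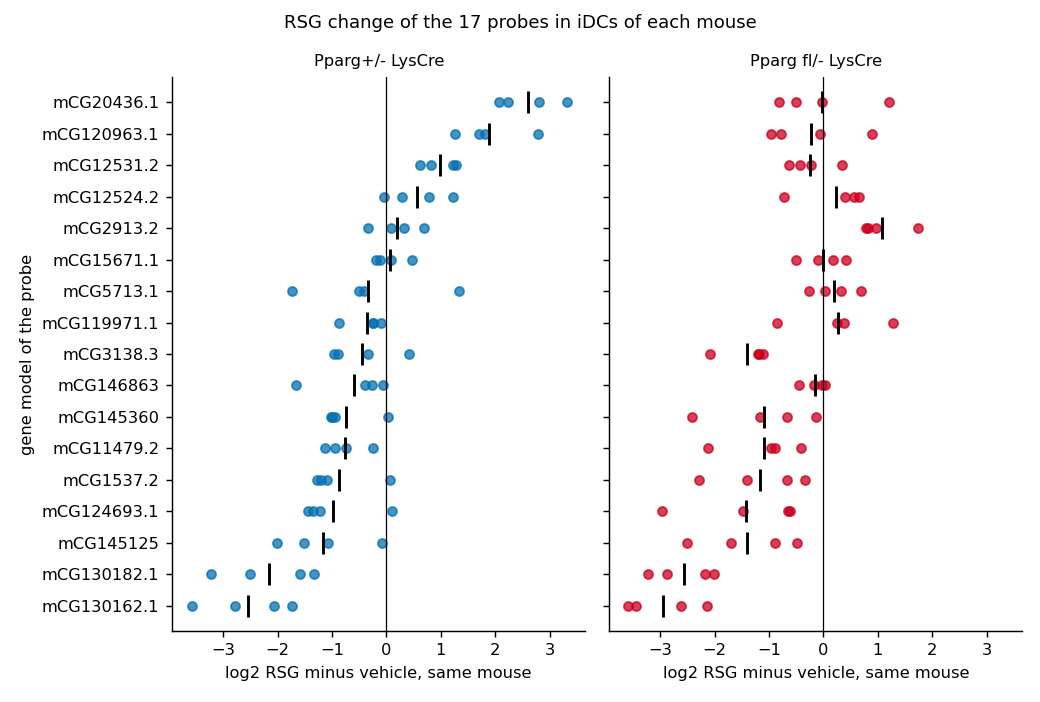
Log2 difference between RSG-treated and vehicle-treated iDCs of the same mouse for each of the 17 probes (rows, ordered by the mean in Pparg+/- LysCre mice); points are mice, 4 of each genotype, and the black tick is their mean. mCG20436.1 and mCG120963.1 lie to the right of 0 in 4 of 4 Pparg+/- LysCre mice and on both sides of 0 in Pparg fl/- LysCre mice, whereas mCG130162.1 and mCG130182.1 lie to the left of 0 in all 8.

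The second comparison asked what RSG did in Pparg fl/- LysCre iDCs, whose remaining Pparg allele is floxed. Of the 17 probes 3 were called, all lower, where 0.692% of all probes were called (0.81% of those detected on all iDC arrays) and 0.325% were called lower. Their number is above that background, but each call was lost when any of mice 5 to 8 was left out.

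mCG130162.1 was at 14.76, 13.42, 13.34 and 13.89 with vehicle and at 11.30, 11.27, 10.73 and 10.30 with RSG in mice 5 to 8. The 2 groups were more than 2 log2 units apart at their nearest values, and the probe fell by 2.95 ± 0.50 on the log2 scale (7.74-fold lower, adjusted p = 0.0175). mCG130182.1 was at 16.78, 16.43, 16.68 and 16.37 with vehicle and at 13.89, 14.26, 14.68 and 13.13 with RSG. It fell by 2.57 ± 0.48 on the log2 scale (5.95-fold lower, adjusted p = 0.0245), with the vehicle values close together and the RSG values spread. On the 2 scan days the mean differences were -2.80 and -3.10 for mCG130162.1 and -2.53 and -2.62 for mCG130182.1.

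mCG3138.3 was at 15.55, 14.80, 14.93 and 14.82 with vehicle and at 13.46, 13.59, 13.81 and 13.64 with RSG. It fell by 1.40 ± 0.25 on the log2 scale (2.64-fold lower, adjusted p = 0.0190), with mouse 5 above the rest with vehicle. Median scaling of the arrays in place of quantile normalization ended this call (-1.42, adjusted p = 0.0533). In Pparg+/- LysCre iDCs the same probe had 13.66, 13.74, 14.04 and 13.57 with vehicle and 14.07, 13.40, 13.09 and 12.68 with RSG, which overlap (-0.44 ± 0.25, adjusted p = 0.333). Its RSG-treated levels in the 2 genotypes thus lay side by side.

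Without mouse 5, 6, 7 or 8 in turn, 0 of the 17 probes were called, with 8 or 9 of them below 0.05 in limma before adjustment, and the adjusted p of the 3 called probes reached 0.125, 0.144 and 0.106. Those fits called 66, 27, 58 and 29 of all probes, in the same order of mice, with 1484 to 1781 below 0.05 before adjustment. Without mouse 2 mCG130162.1 alone was called, with 61 of all probes. With only the 8 arrays compared in the fit, 0 of the 17 were called, 8 at an unadjusted p under 0.05, where 6 of all probes were called and 1216 had an unadjusted p under 0.05.

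Over the 17 probes 8 were lower with RSG in all 4 Pparg fl/- LysCre mice, 1 was higher in all 4 and 8 were mixed. Over all probes tested 12.2% were lower in all 4 mice and 12.7% were higher. The single member higher in all 4 was mCG2913.2, at 10.23, 9.85, 9.26 and 9.05 with vehicle and 11.20, 10.67, 10.05 and 10.79 with RSG (1.08 ± 0.29, adjusted p = 0.139). Groups did not overlap for 7 of the 17, against 4.94% of all probes tested. The median change was -0.239 (0.00845 over all probes), with 4 above 0 and 13 below, and it was -0.603 without mouse 5. With the mouse as a block 7 of the 17 were called, where 346 of all probes were. The 4 added were mCG2913.2 (adjusted p = 0.0275), mCG11479.2 (-1.10 ± 0.23, adjusted p = 0.0251), mCG145125 (-1.40 ± 0.33, adjusted p = 0.0377) and mCG124693.1 (-1.43 ± 0.35, adjusted p = 0.0454).

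**Figure D4:**
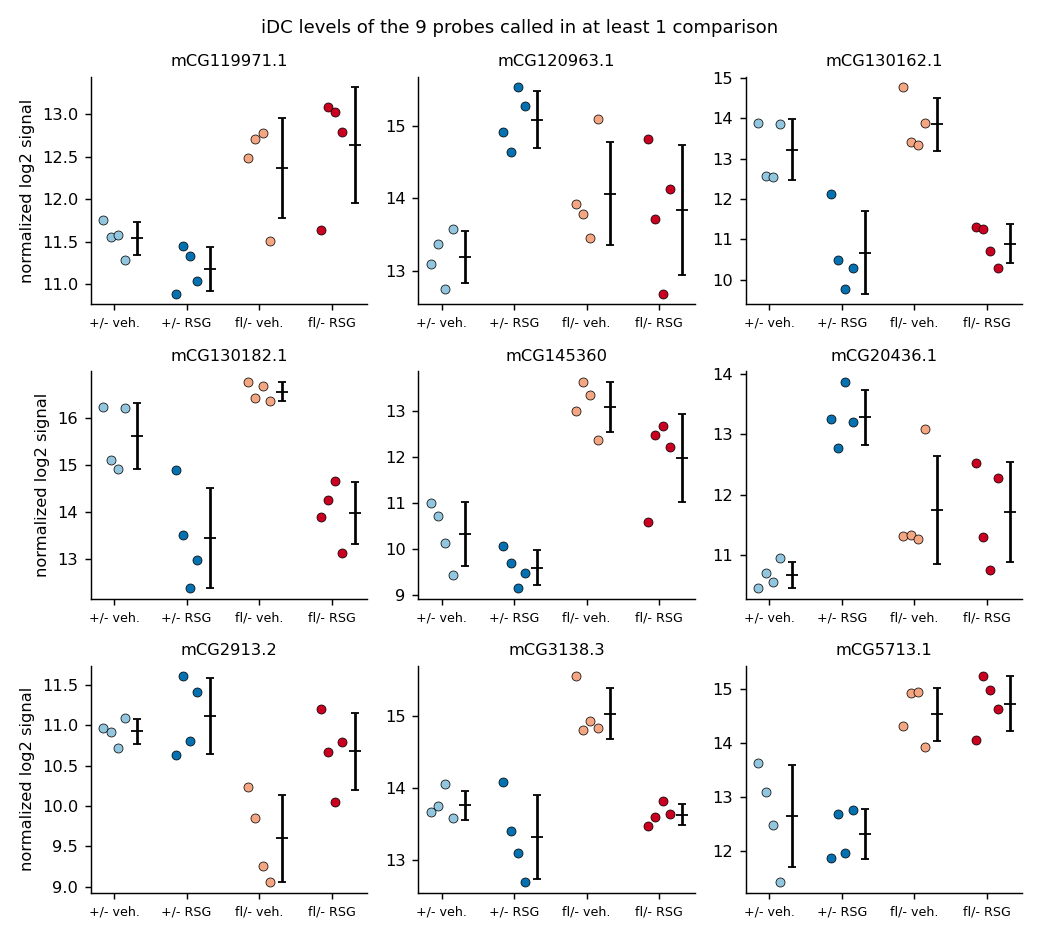
Normalized log2 signal of the 9 probes called in at least 1 comparison, on every iDC array, by genotype (+/-, Pparg+/- LysCre; fl/-, Pparg fl/- LysCre) and treatment (veh., vehicle); points are mice and bars the group mean ± SD (n = 4), and each panel has its own axis. With RSG, mCG130162.1 and mCG130182.1 are lower in both genotypes, and mCG145360 and mCG5713.1 are higher in Pparg fl/- LysCre iDCs under both treatments.

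The difference in RSG effect between genotypes was tested as an interaction. In simulated data that test recovered 30.5% of changes of 1 log2 unit. None of the 17 probes was called by limma, with 4 at an unadjusted p under 0.05, where 0.439% of all probes and 0.543% of those detected on all iDC arrays were called and 1764 of all had an unadjusted p under 0.05. The values nearest to a call were those of mCG20436.1, with an RSG effect lower in Pparg fl/- LysCre iDCs by a log2 difference of -2.64 ± 0.62 (95% confidence interval -3.97 to -1.32, adjusted p = 0.0969), and of mCG120963.1 (-2.12 ± 0.59, -3.40 to -0.85, adjusted p = 0.176). The second probe of mCG120963.1, 545251, gave -1.84 ± 0.53 (adjusted p = 0.198). With the mouse as a block both members were called, mCG20436.1 at an adjusted p of 0.0180 and mCG120963.1 at 0.0454, where calls over all probes went from 73 to 270. mCG20436.1 was also called without mouse 5, with all 32 arrays in the fit, and where only probes detected on all 16 iDC arrays were tested, with 210, 103 and 119 of all probes tested. For the 2 probes that fell in both genotypes the difference in effect was -0.41 ± 0.71 (mCG130162.1, -1.93 to 1.11) and -0.41 ± 0.68 (mCG130182.1, -1.87 to 1.05), so effects that differed by over 1 log2 unit are within both intervals.

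The third comparison set vehicle-treated iDCs of Pparg fl/- LysCre mice against those of Pparg+/- LysCre mice. Of the 17 probes 4 were called, mCG145360, mCG5713.1 and mCG3138.3 higher in Pparg fl/- LysCre cells and mCG2913.2 lower, where 2.83% of all probes and 3.34% of those detected on all iDC arrays were called. Of the 17 differences 16 were above 0, with a median of 0.872, whereas 47.3% of all probes were above 0, with a median of -0.0212. Groups did not overlap for 8 of the 17, against 15% of all probes.

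mCG145360 was at 11.01, 10.72, 10.13 and 9.44 in mice 1 to 4 and at 13.00, 13.65, 13.36 and 12.37 in mice 5 to 8. It was higher by 2.77 ± 0.45 on the log2 scale, a 6.82-fold difference (adjusted p = 0.0128). mCG5713.1 was at 13.62, 13.10, 12.48 and 11.43 in mice 1 to 4 and at 14.32, 14.92, 14.94 and 13.93 in mice 5 to 8, higher by 1.87 ± 0.42 (3.66-fold, adjusted p = 0.0330). In both probes the lowest Pparg+/- LysCre value was that of mouse 4, and the groups did not overlap.

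mCG3138.3, whose vehicle values are given above, was higher by 1.27 ± 0.25 (2.41-fold, adjusted p = 0.0211), a call that median scaling ended (1.18, adjusted p = 0.0517). mCG2913.2 was at 10.96, 10.92, 10.72 and 11.09 in mice 1 to 4 and lower in mice 5 to 8, by a log2 difference of -1.32 ± 0.29 (2.50-fold lower, adjusted p = 0.0311). It was the only one of the 17 with a lower mean in vehicle-treated Pparg fl/- LysCre iDCs, and the S/N of mouse 8 there was the 3.01 nearest to the threshold.

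The 4 calls needed nearly all mice. Without mouse 2, 4, 6 or 7 in turn 0 of the 17 were called, with 7 to 10 below 0.05 in limma before adjustment, where 36, 50, 41 and 37 of all probes were called and 2973 to 3167 were below 0.05 before adjustment. Without mouse 3 or 8 there was 1, mCG145360, with 76 and 71 of all probes, and without mouse 5 there were 5, where the calls over all probes went from 471 to 2029. Over the fits without a single mouse the adjusted p reached 0.0549 for mCG145360, 0.108 for mCG5713.1, 0.0812 for mCG3138.3 and 0.112 for mCG2913.2, and with no detection filter 1 probe was called, mCG145360, with 63 of all 33012 probes. Each scan day held 1 genotype, so a genotype difference cannot be told apart from a difference between the days of the genotypes. With the day as a random block, which cannot separate them either, the same 4 probes were called, with 402 of all probes. With only the 8 arrays compared in the fit the calls of mCG5713.1 and mCG2913.2 were lost, where 174 of all probes were called.

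The same comparison with RSG in both genotypes gave 4 calls again, mCG5713.1, mCG145360 and mCG119971.1 higher in Pparg fl/- LysCre iDCs and mCG20436.1 lower, where 6.65% of all probes and 7.25% of those detected on all iDC arrays were called. Groups did not overlap for these 4 only, against 15.2% of all probes. Of the 17 differences 13 were above 0, with a median of 0.329 (-0.0335 over all probes), which was 0.569 without mouse 1 and 0.179 without mouse 4.

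mCG5713.1 was at 11.89, 12.68, 11.97 and 12.76 in mice 1 to 4 and at 14.06, 15.24, 14.98 and 14.63 in mice 5 to 8. It was higher by 2.40 ± 0.42 (5.29-fold, adjusted p = 0.00751). mCG145360 was at 10.06, 9.70, 9.14 and 9.47 in mice 1 to 4 and at 10.58, 12.48, 12.68 and 12.23 in mice 5 to 8, with mouse 5 near the Pparg+/- LysCre values, and was higher by 2.40 ± 0.45 (5.28-fold, adjusted p = 0.00966). These 2 probes were called in both treatments, and with RSG in every fit that left out a single mouse, and their RSG effects were not called in either genotype.

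mCG119971.1 was at 10.89, 11.46, 11.33 and 11.04 in mice 1 to 4 and at 11.64, 13.09, 13.03 and 12.79 in mice 5 to 8, higher by 1.46 ± 0.32 (2.75-fold, adjusted p = 0.0168). With vehicle its difference was 0.83 ± 0.32 (adjusted p = 0.142). mCG20436.1, whose values are given above, was lower in RSG-treated Pparg fl/- LysCre iDCs by a log2 difference of -1.56 ± 0.44 (2.95-fold lower, adjusted p = 0.0391). With vehicle its difference had the other sign, 1.08 ± 0.44 (adjusted p = 0.158). mCG120963.1 had the same pair of signs, with 0.87 ± 0.42 with vehicle (adjusted p = 0.235) and -1.25 ± 0.42 with RSG (adjusted p = 0.0723). Its difference with RSG was called under 5 of 19 alternatives, among them median scaling and the deposited ratios (1538 and 1540 of all probes).

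The calls of mCG119971.1 and mCG20436.1 were lost without mouse 1, 2, 3, 4, 6 or 7, which each left 2 probes called, and reached an adjusted p of 0.0692 and 0.136. Those fits called 458, 218, 424, 613, 367 and 263 of all probes, in the same order of mice. Without mouse 5 there were 7 calls among the 17, where those over all probes went from 1106 to 2654. With only the 8 arrays compared, 1 was called, mCG5713.1, and 46 of all probes. With no detection filter the call of mCG20436.1 was lost, where 407 of all 33012 probes were called.

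**Figure D5:**
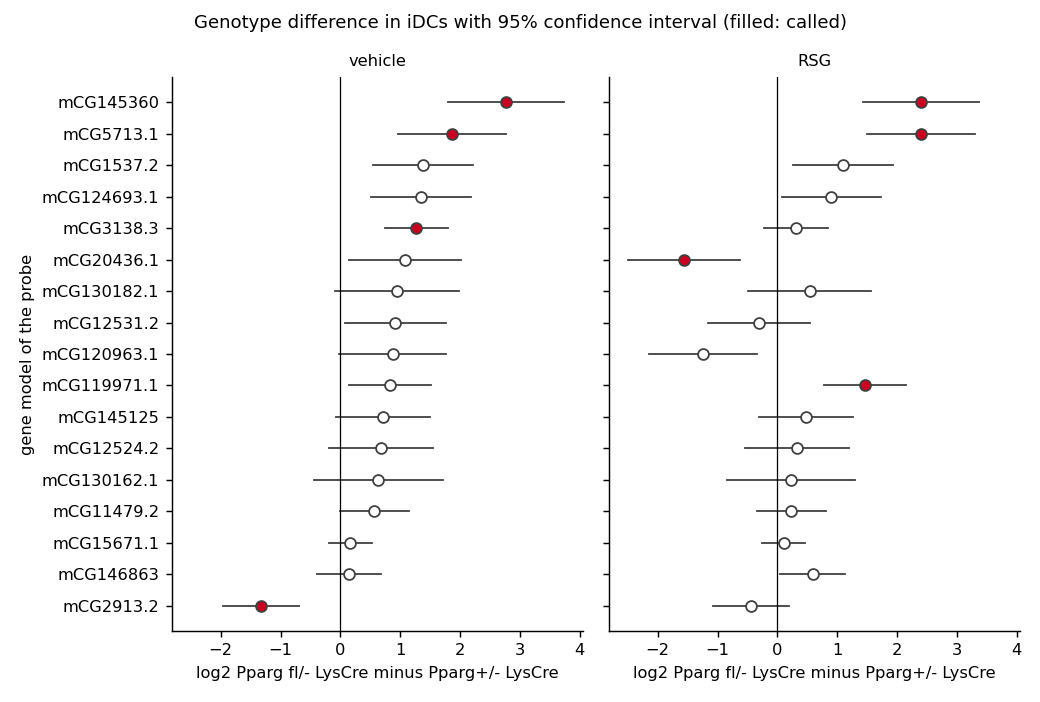
Log2 difference between Pparg fl/- LysCre and Pparg+/- LysCre iDCs for each of the 17 probes with its 95% confidence interval, with vehicle (left) and RSG (right), rows ordered by the vehicle difference and filled points called. With vehicle 16 of 17 points lie to the right of 0, with RSG 13 of 17.

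Over the 5 comparisons 9 of the 17 probes were called at least once, in 15 of 85 tests, and 8 were not called. Of all probes tested 12.1% were called at least once, and 13.5% of those detected on all iDC arrays. mCG130162.1, mCG130182.1, mCG145360, mCG5713.1, mCG3138.3 and mCG20436.1 were each called in 2. The comparisons share arrays. The vehicle-treated Pparg fl/- LysCre arrays, for example, enter both the RSG effect in that genotype and the genotype difference with vehicle. A high level there moves both. This holds for mCG3138.3, whose mean was 15.03 ± 0.36 in that group and 13.31 to 13.76 in the other 3.

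The 8 probes without a call were mCG11479.2, mCG124693.1, mCG12524.2, mCG12531.2, mCG145125, mCG146863, mCG1537.2 and mCG15671.1. With the mouse as a block 4 of these 8 were called, mCG11479.2 and mCG145125 for RSG in both genotypes, mCG12531.2 for RSG in Pparg+/- LysCre iDCs and mCG124693.1 for RSG in Pparg fl/- LysCre iDCs. Calls over all probes also rose with that block, from 999 to 1492 in Pparg+/- LysCre and from 115 to 346 in Pparg fl/- LysCre iDCs. mCG1537.2 and mCG124693.1 had the largest uncalled vehicle differences between genotypes, 1.39 ± 0.39 (adjusted p = 0.0617) and 1.35 ± 0.39 (adjusted p = 0.0651). Both were called where only the 10860 probes detected on all 16 iDC arrays were tested, which took the calls among the 17 from 4 to 6 and gave 668 over all probes tested. mCG1537.2 was also called with only the 8 arrays compared (174 of all probes) and without mouse 5 (2029). mCG1537.2 was at 11.44, 11.87, 12.19 and 11.46 in vehicle-treated iDCs of mice 1 to 4 and at 12.92, 12.85, 13.13 and 13.60 in mice 5 to 8. Those groups did not overlap, and with RSG in mice 5 to 8 it was at 10.63, 12.18, 12.80 and 12.20, with mouse 5 the lowest.

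mCG11479.2 and mCG145125 were lower with RSG in all 8 mice. mCG11479.2 had differences of -0.76 ± 0.27 (adjusted p = 0.102) in Pparg+/- LysCre and -1.10 ± 0.27 (adjusted p = 0.0897) in Pparg fl/- LysCre iDCs. For mCG145125 they were -1.17 ± 0.36 (adjusted p = 0.0663) and -1.40 ± 0.36 (adjusted p = 0.115). With the mouse as a block the adjusted p was 0.0421 and 0.0251 for mCG11479.2 and 0.0277 and 0.0377 for mCG145125.

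mCG146863 stood at 13.32 to 14.13 in vehicle-treated Pparg+/- LysCre iDCs and at 13.66 to 14.08 in vehicle-treated Pparg fl/- LysCre iDCs, a difference of 0.15 ± 0.25 (95% confidence interval -0.39 to 0.68, adjusted p = 0.785). mCG12524.2 had RSG differences of 0.57 ± 0.40 and 0.22 ± 0.40 in the 2 genotypes, with adjusted p-values of 0.473 and 0.924. For mCG15671.1 the 4 differences between pairs of groups ran from -0.0049 to 0.17, and the widest of their 95% confidence intervals reached 0.53, so a change over 1.5-fold was outside all 4.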

How the data were processed

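Digoxigenin-labeled cRNA was hybridized to 32 single-color Applied Biosystems chemiluminescence arrays. The authors deposited for each array a signal intensity per probe, its standard deviation and the S/N, a score per probe of the scanner output. The authors also deposited ratios of scaled signals to the median of each probe, used here only as an alternative. Versions of the processing software and the genome build were not given in the sources used here. The 17 probes, the gene lists and the tests were chosen with earlier results of these data known.

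Signals were log2 transformed and quantile normalized over 32 arrays. limma 3.58.1 in R 4.3.3 was fitted to the 16 iDC arrays with a mean per group, over the 16620 probes detected on at least 3 of 4 arrays of at least 1 of the 8 groups, and p-values were Benjamini-Hochberg adjusted over all of these. All 17 probes passed this filter by their choice. Calls required 1.5-fold or more with an adjusted p below 0.05. Tables and plots were made with Python 3.11.15, numpy 2.4.6, pandas 2.3.3 and matplotlib 3.10.9, and the fit was tested on simulated data.

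Mouse numbers mark the animal that gave both cultures. Residuals around the mean of each group correlated across probes between the vehicle and RSG iDC arrays of a mouse with a median of 0.173 (0.0372 to 0.549, 8 mice), against -0.0533 between different mice. Because residuals were taken around group means, the value between different mice is tied to that within a mouse. Cultures of a mouse also shared a scan day, and mouse and day were not separated here. The numbers were taken to pair the samples, and the fit with the mouse as a block was an alternative.

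Probes named were, per comparison, up to 2 rises and 2 falls of the greatest size among calls without overlap, the 2 highest and 2 lowest median levels in vehicle-treated Pparg+/- LysCre iDCs (mCG130182.1, mCG3138.3, mCG12531.2, mCG12524.2) and the 2 nearest to each side of the threshold. mCG119971.1, mCG11479.2, mCG124693.1, mCG146863 and mCG15671.1 were chosen after their values were seen. A planned search of promoter motifs was not run, because no probe matched a gene. Alternatives were median scaling, the deposited ratios, other detection filters and fold thresholds, other sets of arrays, the mouse or scan day as a block, the methods' unpaired test and leaving out each mouse.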

Additional observations from a re-analysis of the deposited data

Results flagged for a closer look

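Among the 68 sets of 4 values (17 probes in 4 iDC groups), 3 held a value whose gap to the nearest of the others was larger than Dixon's 95% critical share of the range of the set, where about 1 set in 20 would do so by chance. All 3 were in vehicle-treated Pparg fl/- LysCre iDCs. mCG20436.1 was at 13.08 in mouse 8 and at 11.27 to 11.33 in the other 3, a gap of 0.969 of the range. mCG12531.2 was at 12.14 in the same array and at 10.47 to 10.73 in the others (0.847). mCG3138.3 was at 15.55 in mouse 5 and at 14.80 to 14.93 in the others (0.832).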

How the results depend on the processing

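Each of the 15 calls kept its direction under all alternatives run, and 200 of 285 alternative values were called again. With each mouse as a replicate block, calls among the 17 probes went from 4 to 7 for RSG in Pparg+/- LysCre iDCs, from 3 to 7 for RSG in Pparg fl/- LysCre iDCs and from 0 to 2 for the difference between genotypes. Calls over all probes went from 999 to 1492, from 115 to 346 and from 73 to 270, in the same order. The block changed no call among the 17 in the genotype comparisons, where those over all probes went from 471 to 614 and from 1106 to 1203. The methods' t-test, adjusted in the same way, called 2, 0, 0 and 0 of the 17 in the 4 comparisons of groups (977, 0, 28 and 1 of all probes), and 4, 4, 4 and 3 at an unadjusted p under 0.01. At an unadjusted p under 0.05 that test had 9, 7, 8 and 6 of the 17, and 4411, 1200, 3702 and 3971 of all probes. The numbers over all probes are an upper bound for those under 0.01. With only the arrays compared in the fit there were 0 calls for RSG in Pparg fl/- LysCre iDCs (6 of all probes) and 1 for genotype with RSG (46). For genotype with vehicle that fit called 3 (174), with mCG1537.2 gained and mCG5713.1 and mCG2913.2 lost. Without a detection filter there was 1 for RSG in Pparg fl/- LysCre iDCs (35 of all probes) and 1 for genotype with vehicle (63). For genotype with RSG there were 3 (407), with mCG20436.1 lost. With all 32 arrays in the fit there were 5 for RSG in Pparg fl/- LysCre iDCs (177 of all probes) and 1 for the difference between genotypes (103), and among probes detected on all 16 iDC arrays 1 for that difference (119) and 6 for genotype with vehicle (668). Leaving out single mice gave 1 to 5 calls for RSG in Pparg+/- LysCre iDCs (1 without mouse 4), 0 to 3 for RSG in Pparg fl/- LysCre iDCs (0 without mice 5, 6, 7 or 8, 1 without mouse 2), 0 to 5 for genotype with vehicle (0 without mice 2, 4, 6 or 7, 1 without mice 3 or 8), 2 to 7 for genotype with RSG (2 without mice 1, 2, 3, 4, 6 or 7, 7 without mouse 5) and 0 to 1 for the difference between genotypes (1 without mouse 5). The rule found 51 probes when 1 array of each cell type could fail, and 17 to 26 without single mice (26 without mouse 6). The levels by group moved by less than the SD between mice under median scaling and without single mice. Over all probes, calls ran over these alternatives from 573 to 1492 (999 as reported), 0 to 346 (115), 28 to 2029 (471), 1 to 2654 (1106) and 1 to 270 (73), in the order of the comparisons. Median scaling and the deposited ratios each ended both calls of mCG3138.3. For genotype with RSG each of them added mCG120963.1, which took the calls from 4 to 5 (1538 and 1540 of all probes). Median scaling moved the median difference of all probes from -0.0335 to -0.16 for genotype with RSG and from -0.01 to -0.115 for the difference between genotypes. The causes were not tested.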
